A study of Kluyveromyces marxianus with 6 samples.

Results

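Late exponential growth (LE) of the yeast *Kluyveromyces marxianus* was compared with mid exponential growth (ME) over 4 of the 6 libraries of the series, 2 from each growth phase. The members are the 14298 transcribed regions (transfrags) whose levels were deposited for both growth phases, and 6051 of them had a mean ME and LE level of at least 10. Cells of strain ATCC 36907 (KM7), for which the labels name no change of genotype, grew at 30 °C in a shaken synthetic medium (yeast nitrogen base, no uracil, 2% dextrose), and strand-specific RNA-seq was made after removal of rRNA. Early exponential growth (EE) was taken at an optical density of about 3, ME at about 7 and LE at about 10, and all 3 growth phases share the strain, medium and temperature.

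A yeast batch culture consumes its sugar as it becomes denser, and nutrients and oxygen per cell decline toward the end of exponential growth. In *S. cerevisiae*, genes of ribosome synthesis follow the growth rate, and genes for respiration and for other carbon sources are held down while glucose is plentiful. *K. marxianus* is a Crabtree-negative yeast, which respires sugar in the presence of oxygen. A sense transfrag with coding potential is an mRNA, and the noncoding transfrags are long antisense (lancRNA), long intergenic (lincRNA), short antisense (sancRNA) and short intergenic (sincRNA), with long meaning at least 200 bases.

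Each level is a normalised read signal, the authors' mean over both libraries of a growth phase after scaling by size factors, and it is not scaled by transfrag length. Because only these means were used, no spread between cultures is known, no difference was tested and none of the changes below has a replicate check. Change is log2 of (LE + 1)/(ME + 1), which understates the change of low levels, and the errors given are counting errors of the reads alone. The levels correspond to an estimated 10954600 reads on transfrags in ME and 13759100 in LE, and 3 reads in a single library give a level of up to 1.09 in ME, 1.19 in LE and 4.00 in EE. At a level of 10 in both growth phases the counting standard error of a change is 0.34, at 100 it is 0.12 and at 1000 it is 0.037. In bulk RNA, more cells with an RNA and more of that RNA per cell cannot be told apart.

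Among the 6051 transfrags, 353 (5.83%) were higher in LE by 2-fold or more and 573 (9.47%) were lower by as much, with a median change of 0.28. The members nearest to the limit changed by 1.001 and -1.001 inside it and by 0.9995 and -0.999 outside it. The filter on the mean level lets a transfrag pass through its higher growth phase, and 61 of the 353 were under 10 in ME while 238 of the 573 were under 10 in LE. Over all 14298 transfrags, 748 (5.23%) passed this limit upward and 2109 (14.8%) downward, with a median of -0.014.

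The scaling between the growth phases decides the sign of many of these changes. Scaling by the study's mapped reads instead of the size factors lowers every LE level by 0.54 (log2), and the change by somewhat less at low levels because of the added 1. This leaves 67 transfrags past 2-fold upward and 1135 downward. The share of the calls that are higher is then 5.57% in place of 38.1%. Changes are therefore given as deposited and set against the median of all 3753 mRNAs at a level of at least 10, which was 0.30 as deposited and -0.24 by mapped reads.

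The clearest pattern was that the change of an mRNA went with its level. The 610 mRNAs at a mean level of at least 1000 had a median change of 0.56, and 31 of them were past 2-fold upward and 0 downward, against 5.57% and 11.0% of all mRNAs tested. For the 791 mRNAs at 300 to 1000 the median was 0.52, with 52 higher and 8 lower, and for the 835 at 100 to 300 it was 0.41, with 49 higher and 46 lower. The 760 mRNAs at 30 to 100 had a median of -0.18, with 48 higher and 149 lower. In the lowest bin, 10 to 30, the median of 757 mRNAs was -0.53, with 29 higher and 208 lower. Scaled by mapped reads these 5 medians were 0.022, -0.015, -0.12, -0.70 and -1.01. In these bins the abundant mRNAs were thus near equality on that scale, and those under 100 were lower in LE on either scale. The bins are cut on the same ME and LE levels that make up the change.

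**Figure D1:**
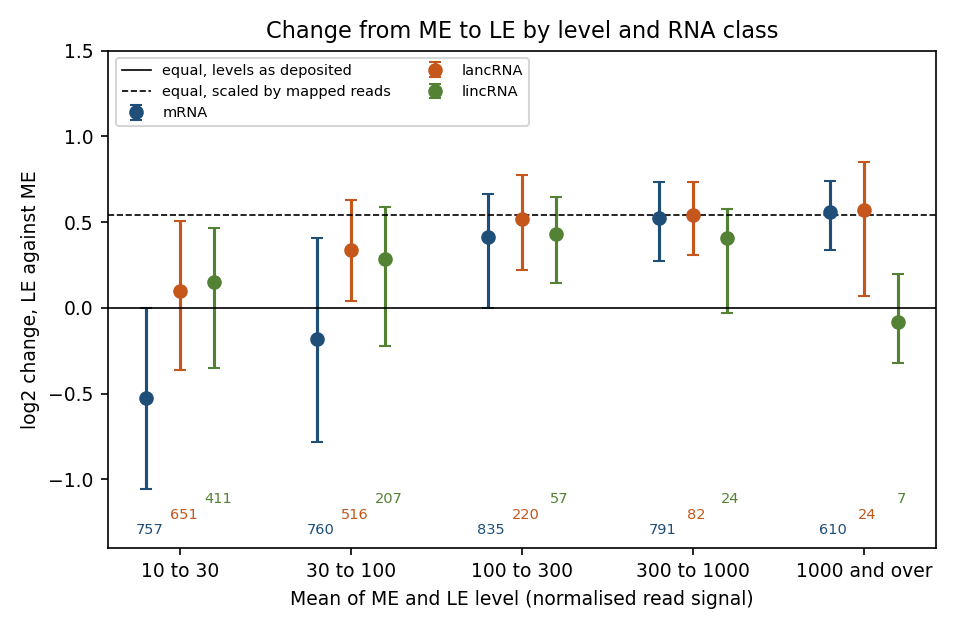
Median log2 change from ME to LE (points) with the lower and upper quartiles (bars) for mRNAs, lancRNAs and lincRNAs by mean ME and LE level, with the number of transfrags under each point; the solid line is equality as deposited and the dashed line equality when scaled by mapped reads. The mRNA median climbs from -0.53 in the lowest bin to 0.56 in the highest, and the lancRNA median from 0.099 to 0.57.

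The summed level was 36.7% higher in LE than in ME as deposited, and the 1401 mRNAs at a level of at least 300 held 93.3% of this difference. These mRNAs already held 2754040 of the summed ME level of 3399690, and their own sum was 42.3% higher in LE. Scaled by mapped reads the difference over all transfrags was -5.92%, so that the share of 93.3% refers to the deposited scale alone. For the mRNAs at 10 to 100 the summed level differed by -15.7% as deposited and by -42.0% by mapped reads. The median length rose with the level, from 546 bases in the lowest bin to 1800.5 in the highest, and the median change went with length in the same way, from -0.019 for the 444 mRNAs of 200 to 400 bases to 0.50 for the 698 of at least 1600 bases. Ordered by their EE level, whose libraries have no part in the change, the 427 mRNAs at 300 to 1000 and the 439 at 1000 or more had medians of 0.54 and 0.65. The bins under an EE level of 100 had medians between 0.028 and 0.14, so that in this order the low mRNAs were not lower in LE as deposited. By mapped reads the medians of these low bins lay between -0.50 and -0.39. Division by length did not remove the pattern: the median was -0.47 for the 412 mRNAs under a level of 30 per kb and 0.57 for the 336 at 1000 to 3000 per kb.

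As deposited, antisense and intergenic RNAs at a level of 10 to 100 had medians above those of the mRNAs of the same level. At a level of 10 to 30 the median change was 0.099 for 651 lancRNAs and 0.15 for 411 lincRNAs, and at 30 to 100 it was 0.34 for 516 lancRNAs and 0.29 for 207 lincRNAs. Scaled by mapped reads these medians were -0.40 and -0.35 at 10 to 30, and -0.19 and -0.25 at 30 to 100, which is lower in LE but above the -1.01 and -0.70 of the mRNAs. Under a level of 10 the deposited medians lay closer together, at -0.24 for lancRNAs, -0.33 for lincRNAs and -0.34 for mRNAs. Of the 1493 lancRNAs tested, 108 (7.23%) were at least 2-fold higher and 85 (5.69%) lower, and of the 706 lincRNAs 28 (3.97%) were higher and 47 (6.66%) lower. The short classes were not binned by level. Of 61 sancRNAs 7 (11.5%) were higher and 15 (24.6%) lower, with a median of -0.16. Of 38 sincRNAs 1 (2.63%) was higher and 15 (39.5%) lower, with a median of -0.70. Their median levels in ME and LE were 14.52 and 13.79 for sancRNAs and 18.43 and 12.32 for sincRNAs. At a level of 10 to 30 the mRNA median was -0.53, below that of the sancRNAs and above that of the sincRNAs. Whether the classes differ could not be tested. Over all their transfrags, the summed level of sancRNAs was 24.3% lower in LE and that of sincRNAs 54.7% lower.

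**Figure D2:**
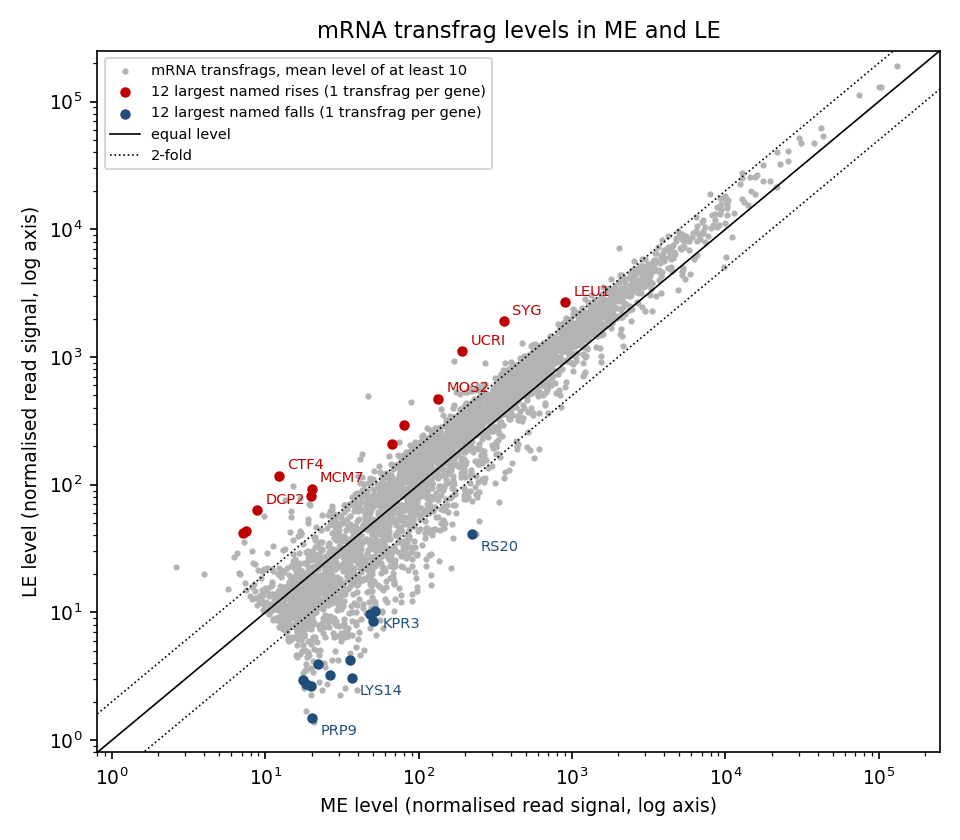
LE level against ME level (both log axes, normalised read signal) for the 3753 mRNA transfrags tested, with the 12 largest rises and the 12 largest falls among genes with a named homolog in colour (only the transfrag of highest mean level of each gene was ranked); solid and dotted lines mark equality and 2-fold. Points above a level of 1000 lie mostly between equality and 2-fold higher, and the coloured falls lie at ME levels between 17.6 and 222.6.

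A closest homolog in the part of the study's homolog table used here was found for 1515 of the 3753 mRNAs, on 1226 genes, and of these 89 (5.87%) were at least 2-fold higher and 170 (11.2%) lower. Genes below are named by that homolog, with roles known from *S. cerevisiae* unless another organism is given, and the value belongs to 1 transfrag, which can cover only a part of the gene. For the 12 largest rises and the 12 largest falls only the transfrag of highest mean level of each gene was ranked. That leaves out 2 transfrags whose rise and 10 whose fall passed that of the last ranked one, among them LHS1, a chaperone of the endoplasmic reticulum (8.78 to 62.4, change 2.70), the RNA polymerase I subunit RPA1 (44.1 to 5.03, change -2.90) and RL8B (236.7 to 41.2, change -2.50). Their genes did not share these changes on the transfrag of highest mean level. There the change was 0.028 for LHS1 (443 to 451), 0.26 for RPA1 (195 to 234) and 1.07 for RL8B (378 to 794). Coordinates are those of the contigs of the public genome sequence to which the authors mapped their reads.

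The largest ranked rise was on a CTF4 transfrag (transfrag02737, contig 98, 74956 to 75390, minus strand). CTF4, a hub of the replisome, had a level of 12.24 in ME and 117.7 in LE, with 20.73 in EE, which is 9.61-fold higher in LE than in ME (change 3.16 ± 0.23, counting SE). The replicative helicase subunit MCM7 (transfrag03479) went from 20.05 to 93.0, 4.64-fold, and the meiotic kinase MEK1 from 19.71 to 80.9, 4.11-fold. DCP2, the catalytic subunit of mRNA decapping, went from 8.85 to 63.0 (7.12-fold), the myosin chaperone SHE4 from 7.13 to 42.2 (5.91-fold) and the mitochondrial protein CAF17 from 7.43 to 43.3 (5.83-fold). All but MEK1 of these 6 were lower in ME than in EE, where their levels were between 11.54 and 24.81. In EE 3 reads in a single library give a level of up to 4.00, and no counting error is given for these differences. The second tested SHE4 transfrag went from 12.96 to 10.40 (change -0.29). The other tested transfrags of DCP2 and MCM7 fell, from 36.59 to 6.69 (-2.29) and from 20.52 to 3.44 (-2.28). Because transfrags were ranked by their mean ME and LE level, the LE level took part in choosing the risen ones. DCP2, SHE4 and CAF17 were under 10 in ME and passed the filter through LE.

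The other ranked rises were at higher levels and so had smaller counting errors. UCRI, the Rieske iron-sulfur subunit of respiratory complex III (transfrag05712, contig 103, 205298 to 206566, minus strand), had 192 in ME and 1108 in LE, with 365 in EE, 5.77-fold higher (change 2.52 ± 0.064). SYG, the glycyl-tRNA synthetase (transfrag01634, contig 91, 48394 to 49104, minus strand), had 359 in ME and 1913 in LE, with 517 in EE, 5.33-fold higher (change 2.41 ± 0.047). For the second SYG transfrag, which lies next to it, the level went from 508 to 811, a change of 0.67. LEU1, an enzyme of leucine synthesis (transfrag12147, contig 105, 715961 to 717828, minus strand), had 899 in ME and 2671 in LE, with 254 in EE, 2.97-fold higher (change 1.57 ± 0.032). The MICOS subunit MOS2 of the mitochondrial inner membrane went from 133.7 to 472, the spindle protein STU1 from 67.3 to 209.8, and a transfrag whose closest entry is the bacterial RNY_BACHK from 79.7 to 296. These 12 rises stayed at least 2-fold under each of the 4 other scalings.

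**Figure D3:**
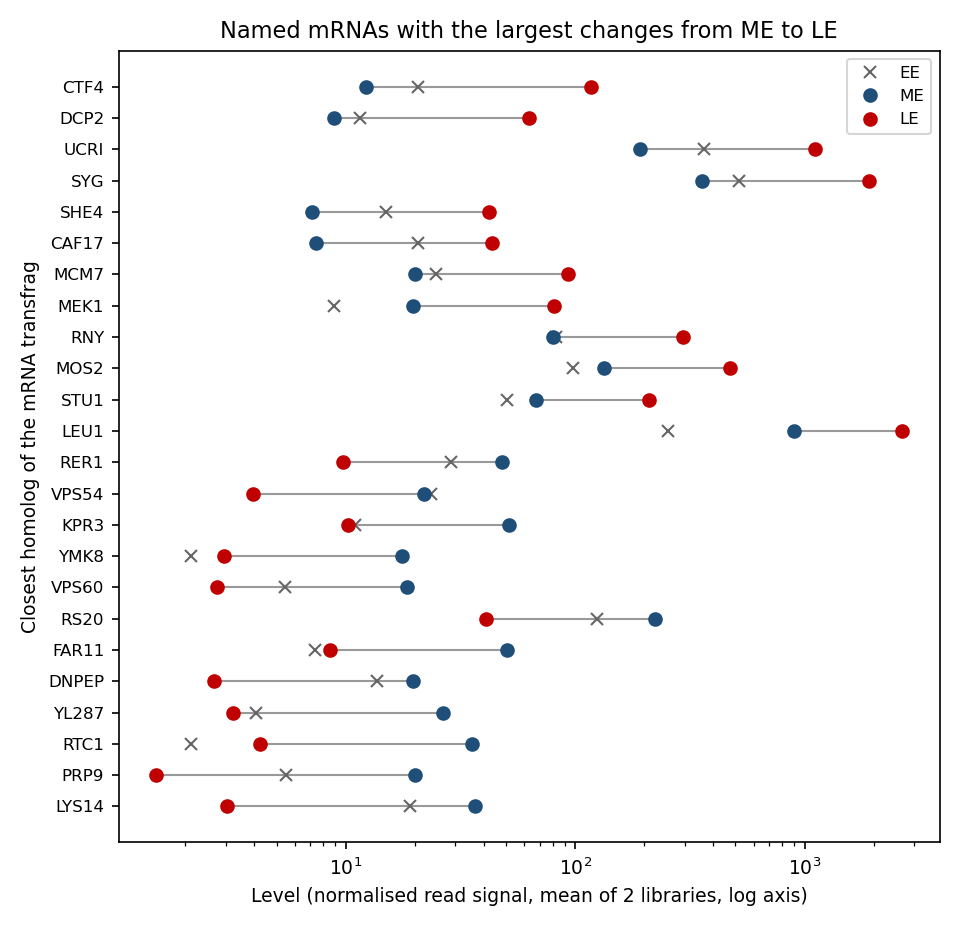
Levels (log axis, authors' means of 2 libraries) in EE (crosses), ME (blue) and LE (red) for the 12 largest rises and the 12 largest falls from ME to LE among mRNAs with a named homolog, ranked over the transfrag of highest mean level of each gene. In the rises UCRI, SYG and LEU1 end above 1000 in LE, and of the 12 falls plotted RS20 alone starts above 100 in ME.

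Of the 12 ranked falls, the ribosomal protein RS20 had the highest level (transfrag11883, contig 105, 542483 to 543170, minus strand). Its level was 222.6 in ME and 41.1 in LE, with 125 in EE, 5.42-fold lower (change -2.41 ± 0.14). LYS14, the activator of the lysine pathway, had 36.6 in ME and 3.04 in LE, with 18.99 in EE, 12.03-fold lower (change -3.22 ± 0.39), on a transfrag of 474 bases. A second gene with the same closest homolog did not share this fall: its highest transfrag went from 644 to 516 (change -0.32). The splicing factor PRP9 went from 20.14 to 1.49, which is close to the level of 3 reads. VPS60 of the ESCRT pathway went from 18.53 to 2.75, the GARP subunit VPS54 from 21.96 to 3.94 and the retrieval receptor RER1 from 47.96 to 9.71. KPR3, a phosphoribosyl pyrophosphate synthetase, went from 51.5 to 10.20, and FAR11, a factor of the pheromone arrest, from 50.4 to 8.55. RTC1, the aspartyl aminopeptidase DNPEP and the uncharacterised YL287 and YMK8 went from levels of 35.6, 19.71, 26.54 and 17.61 to 4.22, 2.66, 3.23 and 2.94. Apart from RS20, every one of the 12 ranked falls ended at a level of at most 10.20, and the counting errors of their changes were between 0.27 and 0.45.

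Among the mRNAs for which no homolog name was used, transfrag28021 (contig 114, 1235181 to 1236083, plus strand) had the largest rise, from 46.5 to 497, 10.67-fold higher (change 3.39 ± 0.12), with 59.6 in EE. A second at high level, transfrag26013, went from 170.4 to 935, and transfrag25225 went from 15.10 to 96.8. The largest falls in this group ended at levels between 1.38 and 2.56, from ME levels of 20.72 to 39.75.

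The lists of known pathways place these single genes. Each list below holds the tested transfrags of its genes, read against 5.57% of all mRNAs at least 2-fold higher, 11.0% lower and a median of 0.30. Since levels differ between lists, the number of transfrags above the median of the mRNAs in the same level bin is given too for a part of the lists. On the mapped-read scale 20 of the 28 list medians change sign, so a list is described by its place among the mRNAs and not by its sign. By mapped reads the transfrags of the lists past 2-fold upward were those of UCRI, SYG, LEU1, CTF4, MCM7 and MEK1. Counting only the transfrag of highest mean level of each gene moved the medians of 4 lists from below 0.30 to above it, and these are given beside the list.

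In glycolysis 0 of 10 transfrags passed 2-fold in either direction, the median was 0.26 and 0 of 10 were above the median of their level bin. Abundant members were higher in LE as deposited: phosphoglycerate kinase PGK went from 42094 to 61544 (change 0.55), enolase ENO from 42981 to 53554 (0.32) and the glyceraldehyde-3-phosphate dehydrogenase G3P3 from 103920 to 130727 (0.33). The entry enzymes lay lower, with hexokinase HXK going from 3791 to 3148 (change -0.27) and the isomerase G6PI from 5902 to 4480.3 (-0.40), and pyruvate kinase KPYK from 6240.5 to 5882 (-0.085). On the mapped-read scale PGK is at 0.0088 and G3P3 at -0.21.

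Around pyruvate and ethanol the median was 0.36, and 1 of 6 transfrags was above the median of its level bin. Of the 6, 0 were at least 2-fold lower and 1 was higher. This was the mitochondrial alcohol dehydrogenase ADH3 (transfrag01196, contig 91, 38588 to 40102, plus strand), at 12788 in ME and 27399 in LE, with 4146 in EE, 2.14-fold higher as deposited (change 1.10) and 0.56 on the mapped-read scale. Pyruvate decarboxylase PDC1 was at 21290 in ME and 21405 in LE, a change of 0.0078. In the citric acid and glyoxylate cycles 0 of 10 passed 2-fold and the median was 0.41, with 3 of 10 above their level bin. Malate synthase MASY of the glyoxylate cycle was the highest of them, going from 1556 to 2700 (change 0.79), while mitochondrial malate dehydrogenase MDHM stayed at 2076 and 2070.4. The 2 gluconeogenic or anaplerotic transfrags, F16P and PYC2, changed by 0.70 and 0.62, and the only tested transfrag of the methylcitrate cycle, PRPD, by 0.44, all short of 2-fold.

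The respiratory chain and ATP synthase had 1 of 13 transfrags at least 2-fold higher, UCRI, and 0 lower, with a median of 0.14, or of 0.55 with 1 transfrag for each of the 11 genes. Members differed in direction: ATPB, the catalytic beta subunit of ATP synthase, went from 12476 to 22793 (change 0.87) and the lactate dehydrogenase CYB2 from 564 to 997 (0.82), whereas the ATP synthase subunit ATPF went from 2055 to 1502 (-0.45). Both transfrags of the internal NADH dehydrogenase NDI1 were lower, at -0.49 and -0.56. Among genes for other carbon sources 1 of 13 was at least 2-fold higher, the peroxisomal beta-oxidation enzyme FOX2 (868 to 1844), and 2 were lower, with a median of 0.61 and 10 of 13 above their level bin. The regulator CAT8 of gluconeogenic genes went from 2853 to 4213 on its main transfrag, while a second CAT8 transfrag went from 47.9 to 16.54. The carboxylate transporter JEN1 changed by 0.62 and 0.59 on its 2 transfrags.

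**Figure D4:**
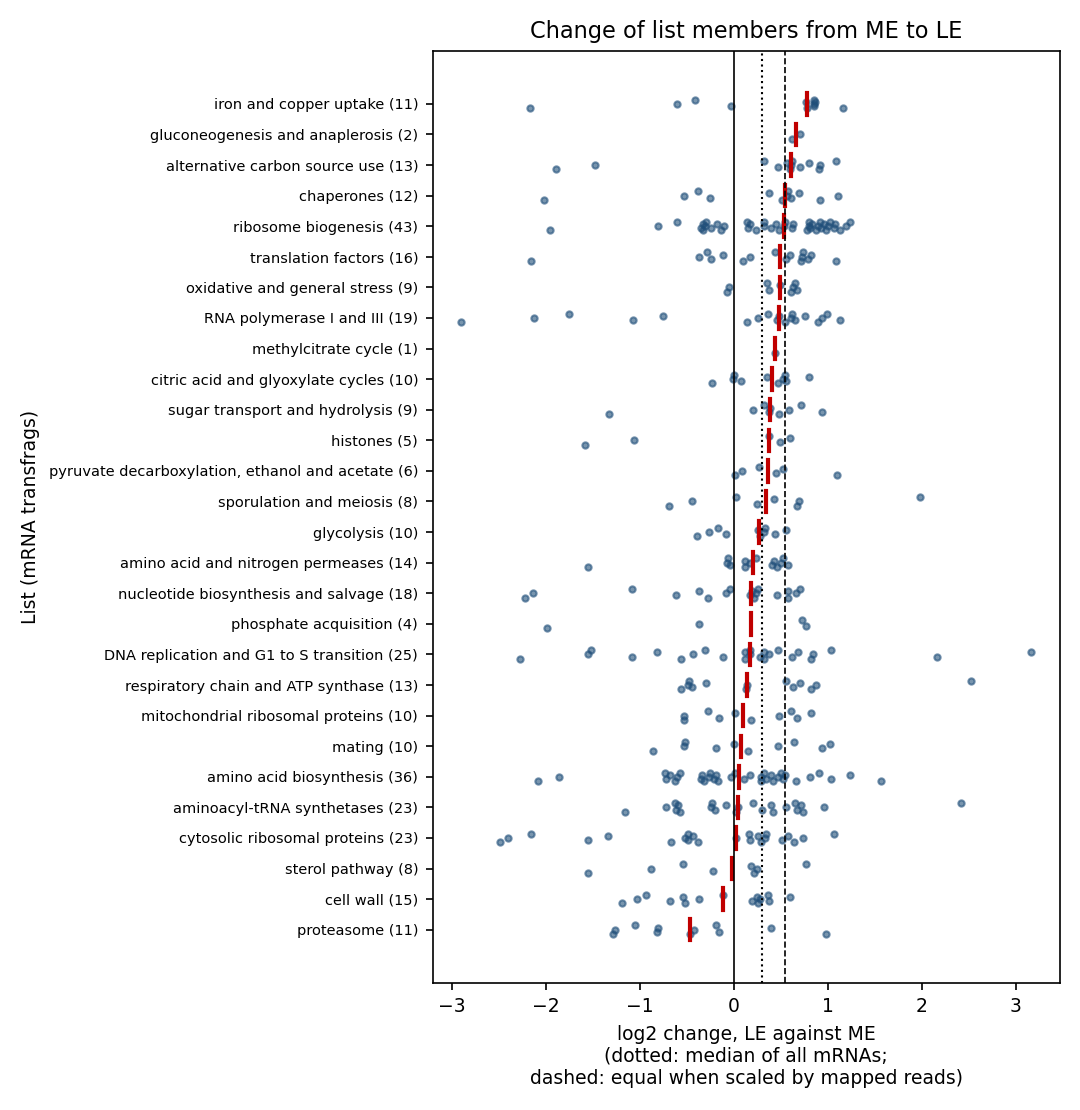
Log2 change from ME to LE of each tested mRNA transfrag (points) in 28 lists of genes, with the list median as a red bar and the number of transfrags in brackets; lines mark equality (solid), the median of all mRNAs at 0.30 (dotted) and equality when scaled by mapped reads (dashed). Iron and copper uptake has the highest median, 0.78, and the proteasome the lowest, -0.47.

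Ribosome biogenesis lay above the mRNA median and the ribosomal proteins below it. Of 43 ribosome biogenesis transfrags, 7 were at least 2-fold higher and 1 lower, the median was 0.54 and 31 of 43 were above the median of their level bin. Scaled by mapped reads 0 of the 43 were at least 2-fold higher and 3 lower, with a median of 0.0017. The highest change was that of RLP24, a factor of the large subunit, from 233 to 547 (change 1.23, and 0.69 by mapped reads), and NSA2, LCP5, UTP23, BUD21 and SDA1 were also past 2-fold as deposited. The fall was on a second NOP4 transfrag of low level, from 22.77 to 5.10. Of 23 cytosolic ribosomal protein transfrags, 1 was higher and 5 lower, the median was 0.019 and 6 of 23 were above their level bin. Besides RS20, the falls were those of RL21A (333 to 73.5), RS16 (505 to 199), RS11B (67.8 to 22.49) and 1 RL8B transfrag, while the rise was on another RL8B transfrag. The abundant RL19B (1953 to 2789) and RS12 (1299 to 1930.4) changed by 0.51 and 0.57. Reads that match several places were put at random by the authors, so the values of genes with a close copy are uncertain.

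RNA polymerases I and III with their factors had 1 of 19 transfrags higher and 4 lower, with a median of 0.48, and the 4 falls were on 2 transfrags of TFC3 and 1 each of RPA1 and RPC1 at ME levels of 34.2 to 84.2. Translation factors had 1 of 16 higher and 1 lower, with a median of 0.49. The elongation factor EF1A went from 74485 to 112409, a change of 0.59. Mitochondrial ribosomal proteins had 0 of 10 past 2-fold and a median of 0.095. Aminoacyl-tRNA synthetases had 1 of 23 higher, SYG, and 1 lower, the mitochondrial tyrosyl enzyme SYYM (40.6 to 17.58), with a median of 0.043, or of 0.40 with 1 transfrag for each of the 15 genes.

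The proteasome had the lowest median of the 28 lists, -0.47, with 0 of 11 transfrags higher, 3 lower and 3 above their level bin. The 3 falls were the core subunits PSB3 (36.6 to 17.09), PSB4 (24.62 to 9.45) and PSB7 (30.3 to 11.99). Its highest member, the regulatory ATPase PRS7, went the other way, from 4874 to 9608 (change 0.98). Chaperones had 1 of 12 higher, the ribosome-associated ZUO1 (316 to 682), and 1 lower, with a median of 0.54. Of the 9 stress transfrags 0 passed 2-fold, the median was 0.48 and the trehalose synthase TPS1 went from 4380 to 6654 (change 0.60).

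Amino acid biosynthesis had 3 of 36 transfrags at least 2-fold higher and 2 lower, with a median of 0.056 and 14 of 36 above their level bin. Of the 3 rises, 2 belong to the branched-chain pathway. Besides LEU1 these were BCA1, the mitochondrial branched-chain aminotransferase, from 7968 to 18800 (2.36-fold, change 1.24 and 0.70 by mapped reads), and P5CR of proline synthesis, from 963 to 1975 (1.03). The falls were ARGD of arginine synthesis (27.73 to 6.88) and TYR1 of tyrosine synthesis (18.34 to 3.56). Nucleotide biosynthesis had 0 of 18 higher and 3 lower, with a median of 0.18. In it the 6 tested transfrags of PYR1, the first enzyme of pyrimidine synthesis, had changes from -0.041 to -2.14. They are parts of 1 gene, and the smallest change (11.41 to 11.06) is inside the counting error of 0.34 at a level of 10. PYRF and PYRE of the later steps changed by 0.65 and 0.57.

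Uptake genes went apart. Iron and copper uptake had the highest list median, 0.78, with 1 of 11 transfrags at least 2-fold higher, 1 lower and 8 above their level bin. AFT1, the activator of the iron regulon, went from 809.6 to 1814 (change 1.16, and 0.62 by mapped reads), the copper transporter CTR1 from 14404 to 25892 (0.85), the siderophore transporter ARN1 from 4966 to 9028 (0.86) and the ferroxidase FET3 from 309.7 to 559 (0.85). A transfrag of the ferric reductase FRE3 went the other way, from 73.8 to 15.59. In sugar transport and hydrolysis 0 of 9 were higher and 1 lower, the hexose transporter KHT2, from 203 to 80.1 with 1384 in EE. The median of this list was 0.38, with 7 of 9 above their level bin. Amino acid and nitrogen permeases had 0 of 14 higher and 1 lower, the glutamine permease GNP1 (238 to 80.2), with a median of 0.20. Of 4 phosphate transfrags 0 were higher and 1 lower, with a median of 0.18: the low-affinity transporters PHO91 and PHO87 changed by 0.76 and 0.72 and the high-affinity PHO84 by -1.99 (36.96 to 8.57).

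Genes of the cell cycle and cell surface also split. DNA replication and the G1 to S transition had 3 of 25 transfrags higher (CTF4, MCM7, CDT1) and 4 lower, with a median of 0.17 (0.32 with 1 transfrag per gene), and both transfrags of the G1 cyclin PCL2 were lower, at 221 to 74.9 and 27.82 to 9.02. Of 5 histone transfrags 0 were higher and 2 lower, with a median of 0.37, and the falls were H2A (217 to 103) and H2B2 (84.4 to 27.43), whereas H3 (3836 to 5813) and H4 (1674 to 2350.4) changed by 0.60 and 0.49. Cell wall genes had 0 of 15 higher and 2 lower, the chitin synthase CHS2 (146 to 63.4) and a FLO5 transfrag (337 to 165), with a median of -0.12 and 1 of 15 above its level bin. The sterol list had 0 of 8 higher and 1 lower, ERG5 (70.05 to 23.12), with a median of -0.021. Mating had 1 of 10 higher, the G protein subunit GPA1 (90.4 to 185), with a median of 0.074 (0.47 with 1 transfrag per gene). Sporulation and meiosis had 1 of 8 higher, MEK1, with a median of 0.33 and 6 of 8 above their level bin. Neither list had a member past 2-fold lower.

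Transfrags of the same gene often differed in their change. In the 232 genes with at least 2 tested mRNA transfrags the median range of the change within a gene was 0.76, and in 103 genes (44.4%) it was at least 1. The transfrag with the highest level had the more positive change in 167 genes (72.0%), by a median of 0.54 over the lowest. Neighbouring transfrags differed by a median of 0.67 within a gene (291 pairs) and of 0.54 between genes (1244 pairs). A change given for 1 transfrag need not be the change of its gene, and the level pattern above was seen within genes as well. Ordered by the EE level, the highest transfrag had the more positive change in 148 genes (63.8%), by a median of 0.31.

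In 7 genes, chosen for this difference, transfrags passed 2-fold in opposite directions. For RL8B, a ribosomal protein of the large subunit, the transfrag of 925 bases (contig 91, 254145 to 255069, plus strand) went from 378 to 794 and the 388 bases upstream (253717 to 254104) from 236.7 to 41.2. The 5′ transfrag of the initiation factor IF2P, 2464 bases long, went from 1055 to 2235, and the 379 bases near its 3′ end from 38.9 to 7.90. In MCM7 the 3′ transfrag went from 20.05 to 93.0 and the 5′ transfrag from 20.52 to 3.44. DCP2 went from 8.85 to 63.0 on the 3′ and from 36.6 to 6.69 on the 5′ transfrag, the SAGA subunit SPT7 from 608 to 1219.9 and from 19.86 to 5.62, and the histone deacetylase HOS3 from 80.9 to 171.6 and from 76.4 to 13.65. In the dynein heavy chain DYHC the rise of 1.85 and the fall of -1.01 were on 2 of 3 transfrags.

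**Figure D5:**
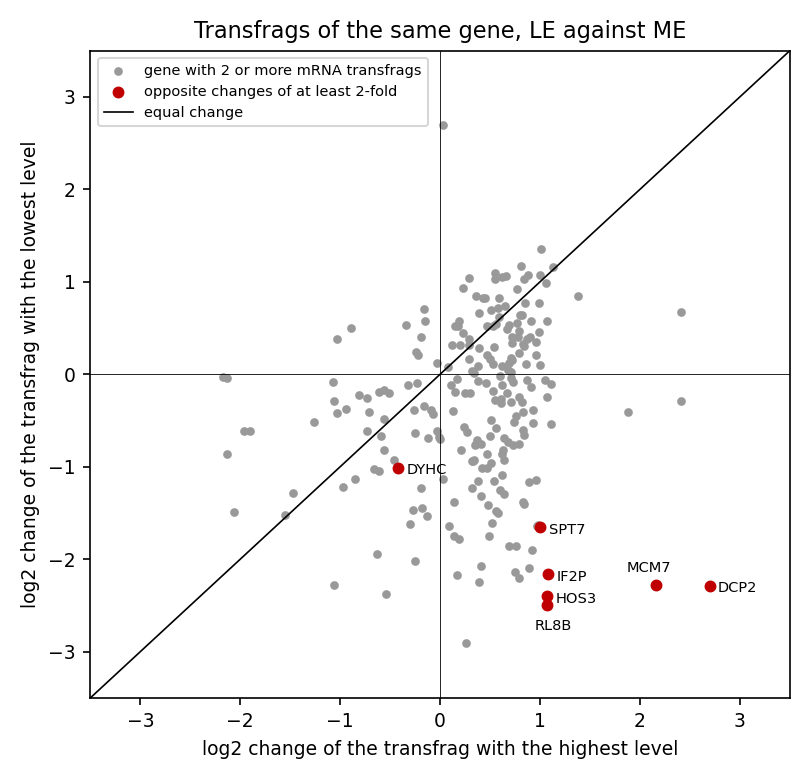
Log2 change from ME to LE of the lowest transfrag against that of the highest transfrag in 232 genes with at least 2 tested mRNA transfrags; the line marks equal change and the 7 genes with opposite changes of at least 2-fold are in red (for DYHC the rise was on a transfrag that is not plotted). Points below the line, 167 of 232, are genes whose most abundant transfrag had the more positive change.

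Changes of an mRNA and of the lancRNA opposite to it went largely separate ways. In 1096 overlapping pairs with both members at a level of at least 10, Pearson's r of the changes was 0.032 and Spearman's rho 0.023, as a description over pairs that share libraries and can share members. The median change was 0.55 for these mRNAs and 0.28 for the lancRNAs, and the median lancRNA level was 6.14% of its mRNA in ME and 5.17% in LE. Both members were past 2-fold upward in 5 pairs, both lower in 1, and they were past 2-fold in opposite directions in 5. The mRNA alone was higher in 49 pairs and lower in 20, the lancRNA alone was higher in 60 and lower in 56, and neither passed in 900. Whether joint changes were more frequent than these separate ones would give was not tested, and the pairs named next are examples. The regulator PDR1 of drug resistance (1154 to 2428) and its lancRNA (117 to 255) were both higher, as were the kinase BUR1 (159.7 to 343) and its lancRNA (25.71 to 72.7). For NSA2 and the splicing factor PRP40 the mRNA was higher (422 to 859 and 391 to 821) and the lancRNA lower (23.49 to 8.48 and 38.9 to 13.86). The part of reads from the opposite strand in these levels was not tested.

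The largest lancRNA rises started near the level of a few reads. Transfrag30546 went from 2.26 to 41.5 (18.35-fold, change 3.70 ± 0.40), and transfrags opposite CRR1, PBS2, the osmotic stress kinase, and CDC15, the mitotic exit kinase, went from 1.62, 2.16 and 1.89 to 19.63, 22.86 and 20.48. Transfrag15028 went from 9.56 to 67.4, with 4.87 in EE. Among the falls, the lancRNA that overlaps the 5′ end of ATPB went from 39.8 to 4.04 while the ATPB mRNA went from 12476 to 22793. Of the lincRNAs, transfrag14625 went from 17.80 to 80.0 with 101.4 in EE, transfrag00567 from 5.32 to 37.9, and transfrag02913 from 32.9 to 1.76.

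The largest falls of all were opposite RNA genes. The study's methods removed transfrags on RNA genes, but 113 deposited transfrags overlapped them, and 49 of these had a level of at least 10. Of the 49, 3 were at least 2-fold higher and 6 lower, beside 5.83% and 9.47% of all 6051 transfrags tested. On the strand opposite to the small subunit rRNA, transfrag16221 (contig 107, 2572 to 4369, plus strand) had 8410 in ME and 203 in LE, with 6914 in EE, 41.41-fold lower (change -5.36 ± 0.060). Opposite the large subunit rRNA, transfrag16216 went from 4327 to 169.4 and transfrag16228 from 8391 to 1337, and opposite the 5.8S rRNA a sancRNA went from 93.0 to 30.6. These rRNA transfrags and transfrag16221 lie together on contig 107, between bases 125 and 9862, and all are among the 6 lower ones. They need not be separate observations. The libraries were depleted of rRNA, and the part of that step in these levels was not tested. A transfrag opposite the U5 snRNA of the spliceosome went from 141.8 to 17.49. Of 15 tested transfrags that overlap tRNA genes, all but transfrag06033 on the opposite strand, 0 passed 2-fold, with changes between -0.33 and 0.85. So few transfrags do not set them apart from the shares over all transfrags. Transfrags opposite an rRNA gene of bacterial type (2475 to 5328), RNase P (8.66 to 24.13) and the guide RNA snR49 (10.21 to 30.2) were at least 2-fold higher. Without the transfrags on RNA genes 350 others were past 2-fold upward and 567 downward.

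Beside the EE levels, the called groups differed in where ME stood, and the comparisons with EE share the ME and LE libraries with this one. The 209 mRNAs at least 2-fold higher in LE had median levels of 105.7 in ME and 241 in LE, with 76.8 in EE. The 411 mRNAs at least 2-fold lower had 46.3 in ME and 14.05 in LE, with 29.98 in EE, so that the falls were on mRNAs of low level in all 3 growth phases. The 3133 mRNAs that did not pass 2-fold had 180.1 in ME and 229 in LE, with 70.7 in EE. The 108 higher lancRNAs had medians of 22.27 in ME and 63.4 in LE, with 12.44 in EE, and the 28 higher lincRNAs 15.45 in ME and 36.2 in LE, with 28.97 in EE.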

How the data were processed

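The RNA-seq levels of *K. marxianus* were deposited by the authors as a normalised read signal, as the mean of the 2 libraries for each transfrag in each growth phase. The authors mapped trimmed reads to the contigs of a public genome sequence, placed reads with several matches at random, built transfrags and scaled libraries by DESeq size factors, and dropped transfrags whose mean level was under 1.34. Base calling with CASAVA 1.4 is named in the submitters' processing notes. RNA classes were taken from the deposited annotation. ME and LE levels were joined by transfrag, a pseudocount of 1 was added, and changes of at least 2-fold were counted at a mean ME and LE level of at least 10. No test was possible on means. The worth of a read in each library was recovered from the steps between low levels, which held 100% of the ME levels and 99.9% of the LE levels up to 5, and gave the counting errors. The step search was tested on simulated data. Homolog names came from the parts of the study's tables used here, for 1948 transfrags by identifier and 298 by position, and only names were taken. Level bins with limits at 10, 30, 100, 300 and 1000 were defined over the mean ME and LE level. The members and the 28 lists were chosen with earlier results of these data known, 2 entries that did not belong to their list were taken out of the lists after values had been seen, and the level bins and the order by EE level were added then too. Named transfrags were the 12 largest rises and falls of mRNAs with a homolog name (1 transfrag per gene), the 4 of other mRNAs, 6 of lancRNAs, 4 of lincRNAs and 2 of each short class, the 5 highest levels, and the highest level, largest rise and largest fall of each list, not all of which are printed. Other members are named as examples after their values were seen. Alternatives were other pseudocounts, filters, fold limits and scalings. Sequences of this yeast were not used here. Python 3.11.15, NumPy 2.4.6, pandas 2.3.3, SciPy and Matplotlib 3.10.9 were used.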

Additional observations from a re-analysis of the deposited data

How the results depend on the processing

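No paired analysis was possible because each deposited value is a mean over both libraries of a growth phase, and leaving out a replicate was not possible either. As deposited, 353 transfrags were at least 2-fold higher and 573 lower. Without a filter on low levels these counts were 748 and 2109, at a mean level of at least 50 they were 216 and 149, at a 1.5-fold limit 1706 and 1025, and at a 4-fold limit 34 and 124. With the summed level made equal they were 85 and 1040, without the 100 highest transfrags 87 and 1010, scaled by mapped reads 67 and 1135, and with the median change set to 0 there were 119 higher and 823 lower.

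Class medians are given in the order mRNA, lancRNA, lincRNA, sancRNA and sincRNA. They were -0.15, -0.13, -0.21, -0.58 and -1.11 with the summed level made equal, -0.12, -0.10, -0.19, -0.56 and -1.09 without the 100 highest, -0.24, -0.21, -0.30, -0.66 and -1.18 by mapped reads, 0.017, 0.037, -0.059, -0.42 and -0.96 with the median change set to 0, and 0.46, 0.48, 0.33, 0.10 and -1.33 at a level of at least 50. Without a filter the medians were 0.061, 0.075, -0.021 and, for sincRNAs, -0.31. The sincRNA median was -0.55 with a pseudocount of 5 and -0.88 with the filter on the mean over all 3 growth phases. For mRNAs at a level of at least 300 the median was 0.092, 0.12, 0.0044 and 0.26 under the 4 scalings in the order above, and for those under 100 it was -0.78, -0.76, -0.86 and -0.63, and -0.034 for those at 50 to 100. All 4 scalings multiply every LE level by 1 factor, so they have no bearing on the gap between abundant and low mRNAs.

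Of the 87 named transfrags past 2-fold, all 47 falls and 29 of the 40 rises stayed past it under each of the 4 scalings. The 11 that did not are on ADH3, RL8B, NSA2, RLP24, TFC1, IF2P, ZUO1, BCA1, AFT1, FOX2 and GPA1. The list medians changed sign in 16 of 28 lists with the summed level made equal, with or without the 100 highest, in 20 by mapped reads and in 11 with the median change set to 0, because all 4 scalings move every change in 1 direction. Homologs matched through the transfrag table alone changed the sign of 3 list medians, those of amino acid biosynthesis (-0.015), mating (-0.0018) and the cell wall (0.038).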
